A study of Mus musculus with 8 samples.

Results

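The complement and coagulation genes of the liver were examined as a list of 45 mouse gene symbols, grouped by the role of their proteins. Of these, 44 were matched to one of the 41388 features counted, and 43 passed the filter on low counts that left 12270 genes for testing. Klkb1, which encodes plasma prekallikrein, had no feature under its Ensembl identifier and is given no value. C5ar1, the receptor for the anaphylatoxin C5a, stayed under the filter and is described by its counts.

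Livers came from 8 db/db mice, which lack a working leptin receptor and become obese and diabetic. Per the labels the strain was C57B/6J, the genotype db/db is named only in the sample titles, and the mice were littermates randomised at 5 weeks and 10 weeks old at sampling. The paper's reporting summary names males for its db/db experiments. Each mouse received adenovirus through the tail vein, encoding green fluorescent protein (AdGFP, 4 mice, the controls) or nicotinamide phosphoribosyltransferase (AdNAMPT, 4 mice). The labels give overexpression for 4 to 5 weeks. The paper gives shorter times after adenovirus, of days rather than weeks, in its methods and for adipose tissue of db/db mice. The promoter that drove either transgene is not given in the sources used here, and all 8 mice carried both the db/db genotype and an adenovirus.

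Complement is a cascade of plasma proteins that tags and lyses targets. It is started by the recognition molecules C1q and mannose-binding lectin, converges on C3, and ends in a pore built from C5b, C6, C7, C8 and C9. Coagulation is a second protease cascade, in which contact factors or tissue factor lead to thrombin, which turns fibrinogen into fibrin, and plasmin later removes the clot. Hepatocytes secrete most of these proteins. C1q comes largely from macrophages, properdin from several kinds of white blood cell, and factor VIII and von Willebrand factor from endothelial cells.

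Libraries held 12006713 to 19879814 counts, and 18153 to 19831 features had at least 1 count. Expression is given as normalised CPM, which are read counts scaled to a common library size after TMM normalisation, a correction for libraries in which a few genes take many reads. The targeted gene did not mark the groups apart, as Nampt (ENSMUSG00000020572) was at 107, 149, 159.5 and 148 normalised CPM in AdGFP and at 144, 120.3, 172 and 168 in AdNAMPT, with a log2 fold change of 0.08 ± 0.15 (SE; limma, adjusted p = 0.915). The AdNAMPT group is therefore the set of libraries labelled AdNAMPT. The library of AdNAMPT replicate 1 stood apart and received the lowest weight in the fit (0.440). Its summed level of 10 female-biased liver genes was 208 normalised CPM against 974 to 1268 in the other 7 libraries, and that of 10 male-biased genes was 1724 against 406 to 536. All 10 hepatocyte markers were detected, at a sum of 103775 to 143366 normalised CPM.

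The data show no member of the list that passed the test between AdNAMPT and AdGFP, and small differences for most of them. At an adjusted p of at most 0.05 in limma, 0 of 43 members were called, against 0.277% of all genes tested (34 genes). Without adjustment, 10 members had p under 0.05, each with a lower estimate in AdNAMPT (23.3%, against 5.04% of all genes tested in that direction), and 0 had it with a higher one (against 4.65%). The DESeq2 Wald test called 1 member, Serpinf2 (2.33%, against 0.611% of all genes), and edgeR's quasi-likelihood test called 0 (against 0.269%). Without adjustment, DESeq2 had 8 members under 0.05 (18.6%, against 6.85%) and the quasi-likelihood test 5 (11.6%, against 8%), where limma had 10 in either direction (against 9.69%). The genes are described below by their roles, with values as normalised CPM and fold changes as log2 of AdNAMPT over AdGFP.

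Levels per length were compared as RPKM over all 8 libraries. Fgb, the beta chain of fibrinogen, was the most abundant at 2337 ± 283 RPKM (SD, n = 8), followed by C3 at 1428 ± 126, Fgg at 1347 ± 151 and Serpinc1, antithrombin, at 1056 ± 64.1. The neighbours C3 and Fgg differed by less than their spread over mice. The next 18 members ran from Fga at 778 RPKM to C4b at 116, a further 14 from F9 at 92.0 to F11 at 11.3, and 6 more from C6 at 9.24 to Vwf at 1.26. The lowest means were 0.614 ± 0.116 RPKM for C3ar1, the C3a receptor, and 0.262 ± 0.103 for C5ar1. Of all counts, the 44 members took 3.17% ± 0.0923 (SD, n = 4) with AdGFP. The share with AdNAMPT was 3.08% ± 0.243 (SD, n = 4), and these ranges overlapped.

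**Figure D1:**
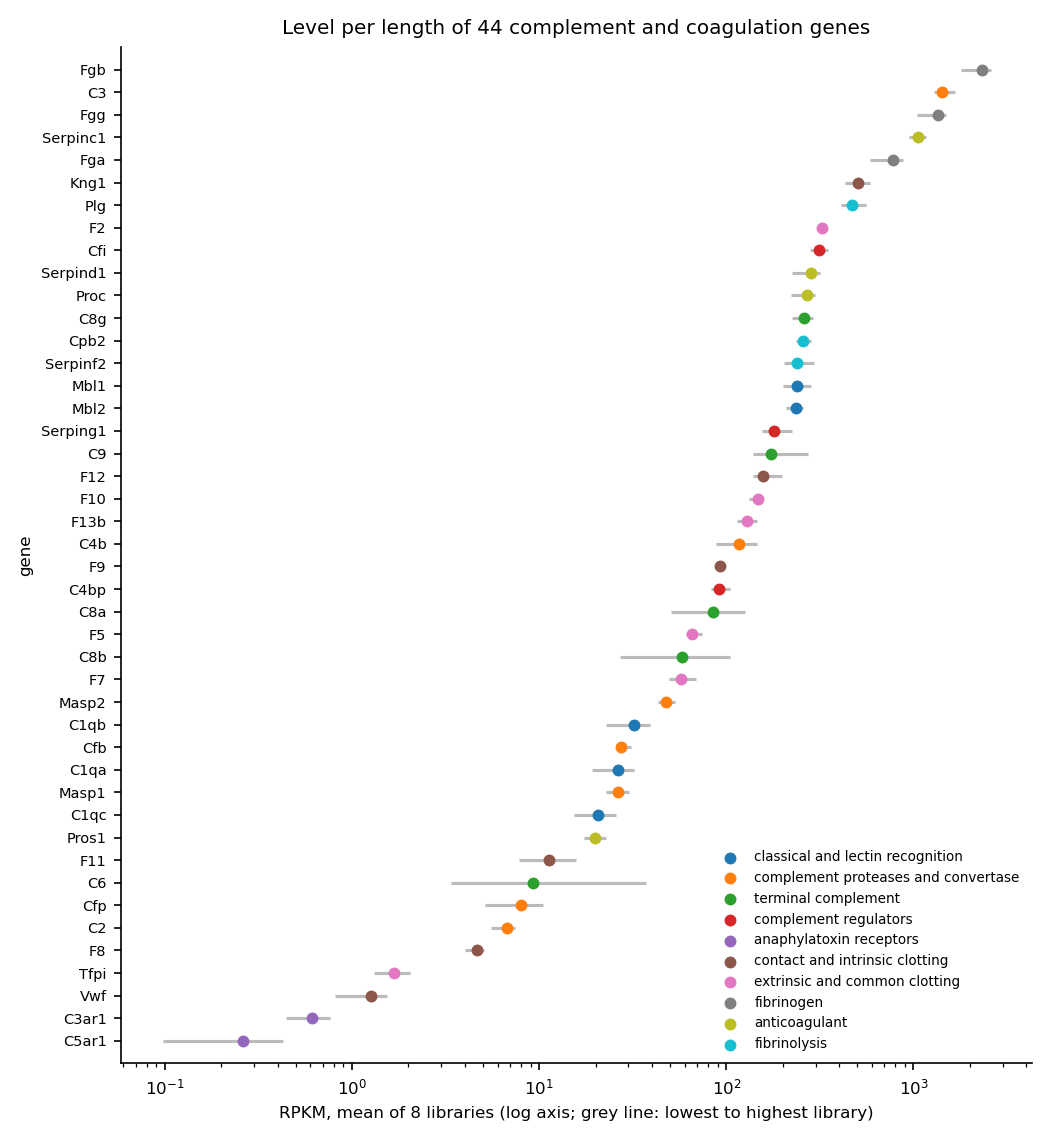
Mean RPKM of the 44 matched members over 8 libraries on a log axis, with a grey line from the lowest to the highest library and colours for the role of the protein. Fibrinogen chains, C3 and antithrombin sit at the top, between 778 and 2337 RPKM, and the anaphylatoxin receptors at the bottom, under 1 RPKM.

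The spread between mice of one group was small for most members. The median SD of log2 normalised CPM within groups was 0.15 over the 43 members and 0.18 over all genes tested. F2, prothrombin, was the steadiest member, with an SD of 0.036, and C6 the least steady, with an SD of 1.10. For 36 of 43 members (83.7%) the 95% interval of the difference lay within a 1.5-fold change either way, as it did for 74.1% of all genes tested. The other 7 were C1qc, Cfp, C6, C8a, C8b, F11 and Tfpi.

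Estimates were lower in AdNAMPT for 38 of 43 members (88.4%), against 49.6% of all genes tested, with a median log2 fold change of -0.16 against 0.00 over all genes. A lean to lower estimates was also seen in a list of hepatocyte markers. Of these 10 markers, 8 had lower and 2 higher estimates, with a median of -0.095 and 0 called. The 43 other tested genes of both cascades, described below, had 23 lower and 20 higher estimates, with a median of -0.035. The TMM factors did not overlap between groups, at 0.947 to 0.977 in AdGFP and 1.01 to 1.05 in AdNAMPT. Nor did the share of ribosomal RNA features in the counts, at 1.77% to 2.63% and 0.863% to 1.62%. The part of these differences in the estimates was not tested. Library size alone, in place of TMM factors, raised the estimates of all genes by a median of 0.084 and those of the members by 0.074 to 0.092. The member median minus the median of all genes was -0.16 under TMM and -0.15 under library size alone. With that common shift, 27 of 43 members had lower estimates (62.8%), against 28.2% of all genes, and the 11 members with estimates just below 0 turned to higher ones. These were Masp2, Cfb, C8g, Cfi, C4bp, Serping1, Kng1, F2, Proc, Serpinc1 and Cpb2. The median over members was then -0.07 and that over all genes 0.09, and 3 members had an unadjusted p under 0.05 with a lower estimate (6.98%, against 1.74%).

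A single library also carried part of it. AdNAMPT replicate 3 held the lowest of the 8 values for 21 of 43 members (48.8%), while it held the lowest value for 12.1% of all genes tested. Its members had a median of -0.26 in log2 relative to the AdGFP mean, against -0.07 in each of AdNAMPT replicates 1, 2 and 4. Without AdNAMPT replicate 3, 33 of 43 members had lower estimates (76.7%, against 50.2% of all genes), the median was -0.09, and 6 members had an unadjusted p under 0.05 with a lower estimate (14%, against 6.13%). Without AdNAMPT replicate 1, 36 of 43 members had lower estimates (83.7%, against 49.1%) and 14 had such a p (32.6%, against 5.06%), with 0 members called.

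**Figure D2:**
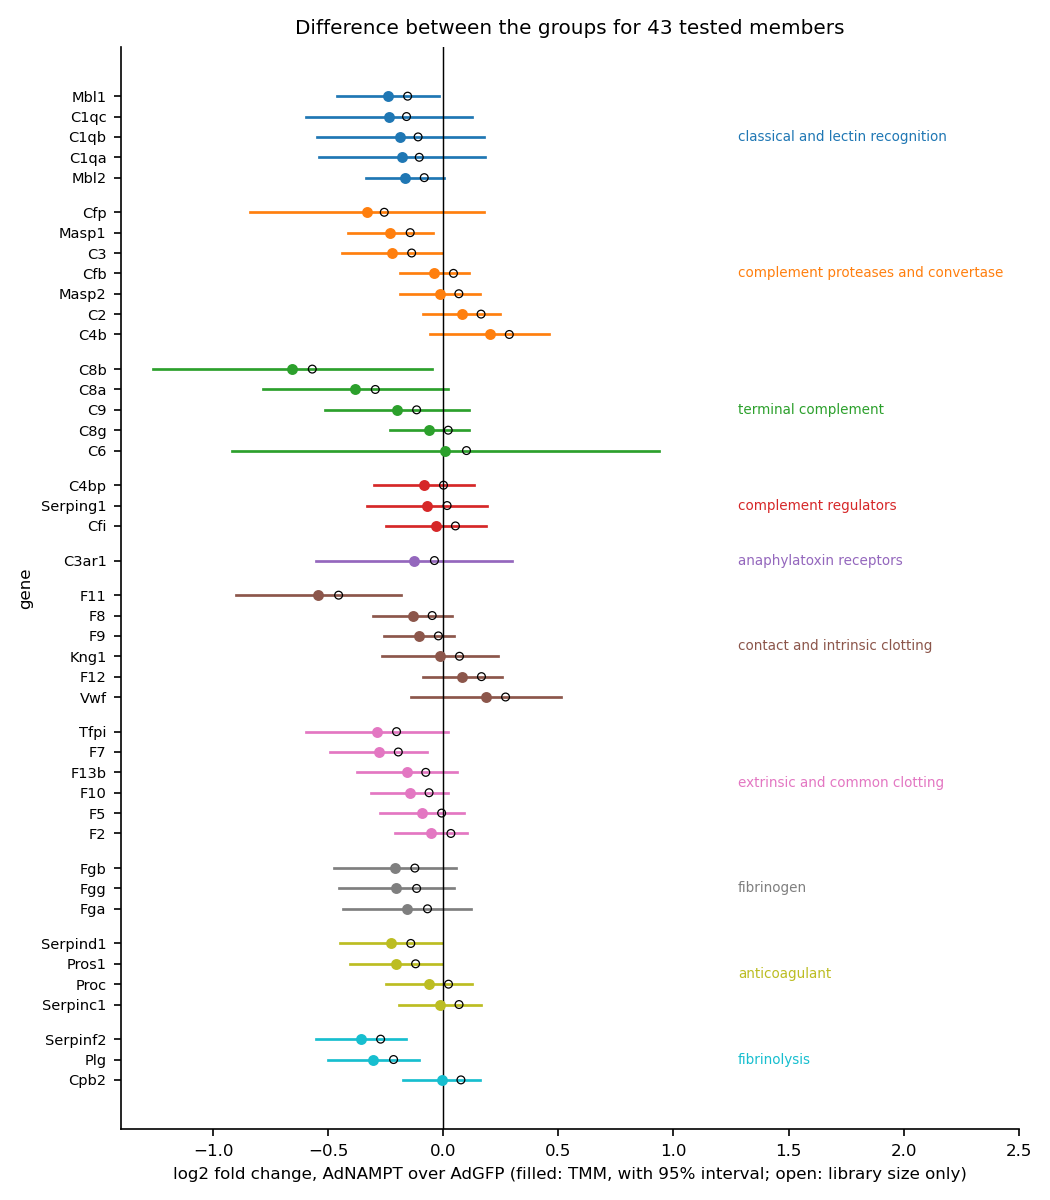
Log2 fold change of AdNAMPT over AdGFP for the 43 tested members, grouped by role, with filled points and 95% intervals from the TMM-scaled limma fit and open circles from library size alone. With TMM 38 points lie below 0, and with library size alone 27 do.

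The 3 fibrinolysis genes included both members whose groups did not overlap, which is 2 of 43 (4.65%) lower in AdNAMPT against 2.7% of all genes tested, and 0 higher against 2.09%. Serpinf2 (ENSMUSG00000038224, chr11:75431732-75439591, minus strand, GRCm38) encodes alpha-2-antiplasmin, the main inhibitor of plasmin. It was at 653, 595, 593 and 710.4 normalised CPM in the AdGFP mice, in replicate order, and at 459, 530.5, 462 and 522 in the AdNAMPT mice. Every AdNAMPT mouse lay below every AdGFP mouse. The log2 fold change was -0.36 ± 0.09 (SE), a ratio of 0.781 with a 95% interval from 0.682 to 0.894 (limma, adjusted p = 0.237). Its adjusted p ranged from 0.0244, in the DESeq2 Wald test, to 0.533 over the alternatives.

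Plg (ENSMUSG00000059481, chr17:12378609-12419384, plus strand) encodes plasminogen, the precursor of plasmin. The AdGFP mice had 1391, 1671, 1337 and 1485 normalised CPM and the AdNAMPT mice 1274, 1223, 1087 and 1134. Here too the groups did not overlap, with the AdNAMPT maximum of 1274 just under the AdGFP minimum of 1337. The log2 fold change was -0.30 ± 0.09 (limma, adjusted p = 0.362). With library size alone the estimates were -0.27 for Serpinf2 and -0.22 for Plg, and only Serpinf2 stayed without overlap, since Plg was then at 1338 in AdNAMPT replicate 1 and at 1305 in AdGFP replicate 3. Cpb2, which encodes an inhibitor of fibrin breakdown activated by thrombin, had overlapping groups, at 363 to 425 normalised CPM in AdGFP and 369.7 to 419.6 in AdNAMPT.

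**Figure D3:**
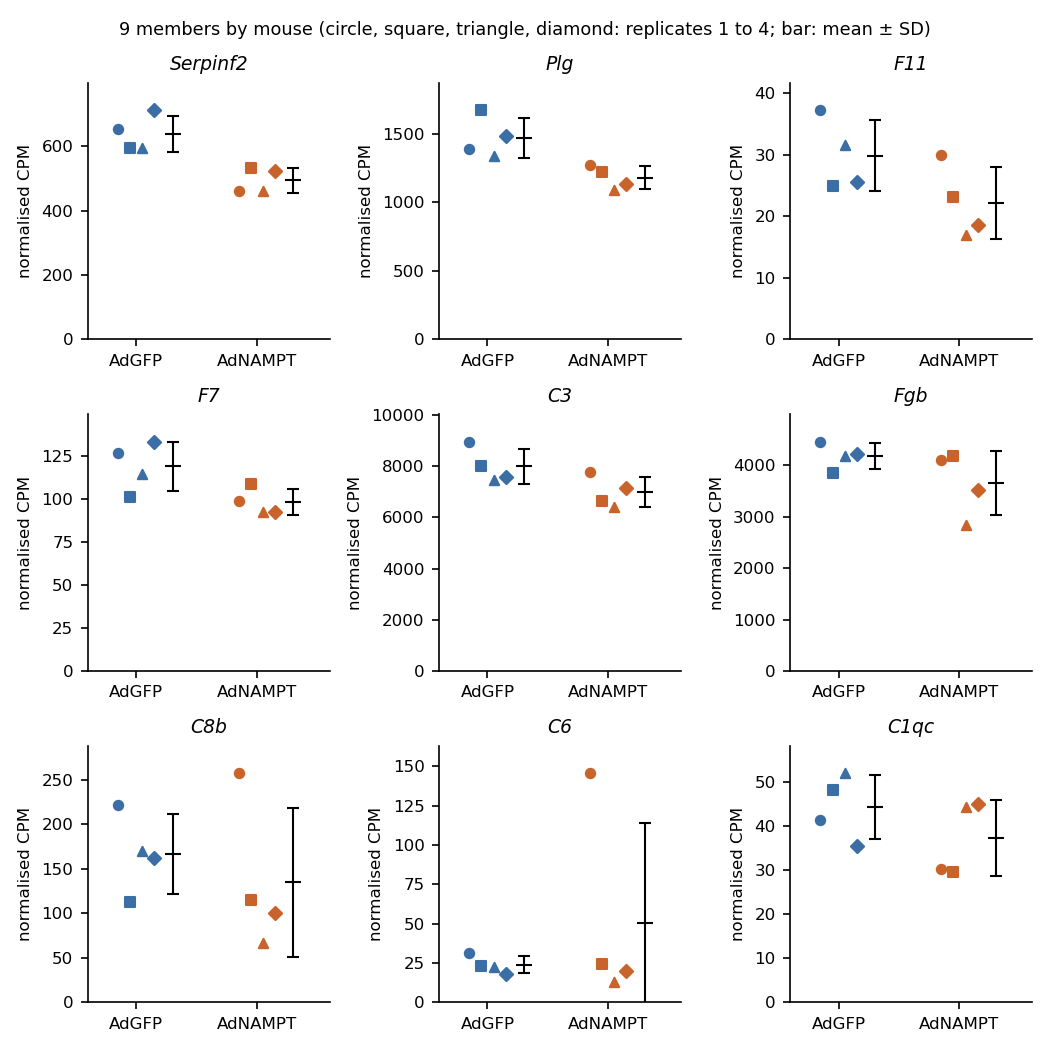
Normalised CPM of 9 members in each mouse on linear axes that start at 0, with a symbol for each replicate number and a black bar for the mean ± SD of 4 mice. Serpinf2 and Plg show separate groups, C6 and C8b show AdNAMPT replicate 1 (circle) far above the other AdNAMPT mice, and the lower SD bar of C6 is cut at 0.

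The 3 fibrinogen chains are encoded side by side on chromosome 3 and are assembled into 1 protein. The 250 bases before the RefSeq start of Fga, Fgb and Fgg are shown because these genes kept close ratios to each other from mouse to mouse, and those of C8a and C8b because they are neighbouring genes whose values put the AdNAMPT mice in the same order. Capitals mark matches, on either strand, to the letters GTTAAT (half-site of the hepatocyte factor HNF1), TTGCNNNAA (C/EBP factors), CTGGGA (core of interleukin-6 response elements of acute phase genes) and TTCNNNGAA (STAT factors). No 2 matches overlap in these windows. The sequences are from RefSeq on GRCm38.p6, and the 4 motifs were chosen after values had been seen.
Fga, chr3:83025903-83026152, plus strand: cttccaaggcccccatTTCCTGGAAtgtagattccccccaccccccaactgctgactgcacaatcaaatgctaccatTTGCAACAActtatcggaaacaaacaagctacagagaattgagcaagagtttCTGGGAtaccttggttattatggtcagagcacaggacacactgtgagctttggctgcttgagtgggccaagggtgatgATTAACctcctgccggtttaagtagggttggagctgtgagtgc
Fgb, chr3:83049864-83050113, minus strand: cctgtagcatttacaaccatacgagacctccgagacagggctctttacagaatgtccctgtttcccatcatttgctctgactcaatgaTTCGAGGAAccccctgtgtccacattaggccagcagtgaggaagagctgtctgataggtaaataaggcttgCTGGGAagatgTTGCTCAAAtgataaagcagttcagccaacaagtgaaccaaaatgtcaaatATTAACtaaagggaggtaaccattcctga
Fgg, chr3:83007474-83007723, plus strand: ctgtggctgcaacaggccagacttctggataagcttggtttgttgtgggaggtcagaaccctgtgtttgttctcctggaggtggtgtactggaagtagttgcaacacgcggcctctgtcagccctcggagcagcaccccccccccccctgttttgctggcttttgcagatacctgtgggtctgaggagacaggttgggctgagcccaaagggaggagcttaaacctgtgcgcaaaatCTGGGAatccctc
C8a, chr4:104876399-104876648, minus strand: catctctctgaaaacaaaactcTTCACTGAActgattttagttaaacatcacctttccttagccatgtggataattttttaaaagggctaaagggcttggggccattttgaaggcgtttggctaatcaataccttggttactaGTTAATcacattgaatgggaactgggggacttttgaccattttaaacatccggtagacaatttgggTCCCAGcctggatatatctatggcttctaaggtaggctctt
C8b, chr4:104766067-104766316, plus strand: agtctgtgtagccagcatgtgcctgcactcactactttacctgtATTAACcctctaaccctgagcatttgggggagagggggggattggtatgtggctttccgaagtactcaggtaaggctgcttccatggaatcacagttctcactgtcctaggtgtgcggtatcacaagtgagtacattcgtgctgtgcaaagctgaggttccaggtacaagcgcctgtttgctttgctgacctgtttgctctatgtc

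The windows of Fga and Fgb held a match to each of the 4 motifs, that of Fgg held CTGGGA alone, that of C8a held all but TTGCNNNAA, and that of C8b held GTTAAT alone. The RefSeq start of Fgb lies 60 bases, and that of Fgg 135 bases, upstream of the gene model in the deposited files. A window was at hand for 34 of the 45 symbols. Of these, 7 held GTTAAT (20.6%, against 6.52% of all 27025 gene windows of the same length), 5 held TTGCNNNAA (14.7% against 8.28%), 13 held CTGGGA (38.2% against 26.8%) and 6 held TTCNNNGAA (17.6% against 7.18%). A match is a description of the letters and not a site of binding.

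Fibrinogen transcripts in AdNAMPT replicates 1 and 2 were at the levels of AdGFP, and those in replicates 3 and 4 were lower. Fgb, the beta chain, was at 4454, 3843, 4185 and 4226 normalised CPM in AdGFP and at 4099.7, 4187, 2839.6 and 3526 in AdNAMPT. Fga, the alpha chain, was at 2782, 2985, 2633 and 2855 in AdGFP and at 2823, 2936, 1907 and 2427 in AdNAMPT. Fgg, the gamma chain, was at 2295, 2527, 2185 and 2219 in AdGFP and at 2266, 2244, 1583 and 1899.6 in AdNAMPT. For each chain the lowest value was in AdNAMPT replicate 3 and the next lowest in replicate 4, and the groups overlapped.

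The log2 fold changes were -0.16 ± 0.13 for Fga, -0.21 ± 0.12 for Fgb and -0.20 ± 0.11 for Fgg (limma, adjusted p from 0.615 to 0.735). They were 0.01, -0.06 and -0.06 without AdNAMPT replicate 3. The ratio of counts of Fga to Fgb stayed between 0.625 and 0.777 over the 8 mice and that of Fgg to Fgb between 0.515 and 0.658, with the highest value of both in AdGFP replicate 2. Of 12 acute phase genes, 8 had lower and 4 higher estimates, 0 were called, and their summed level was 10192 to 13238 normalised CPM in AdGFP and 9870 to 10588 in AdNAMPT. Their part in the fibrinogen values was not tested.

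Terminal complement held the widest differences between mice. C6 (ENSMUSG00000022181, chr15:4727175-4815456, plus strand), which joins C5b to start the pore, was at 31.2, 23.3, 22.7 and 18.2 normalised CPM in AdGFP and at 145, 24.1, 13.1 and 20.1 in AdNAMPT. AdNAMPT replicate 1 was thus far above all others, and the other 3 AdNAMPT mice overlapped with AdGFP. The fit, which gave that library a low weight, put the log2 fold change at 0.01 with a 95% interval from -0.92 to 0.94. Without that library it was -0.38 (limma, adjusted p = 0.583). Over the alternatives the estimate ranged from -0.38 to 1.09. C6 is described because of its value in AdNAMPT replicate 1, which was seen first.

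C8b (ENSMUSG00000029656, chr4:104766317-104804548, plus strand) encodes the beta chain of C8. Its values were 222, 113, 169.6 and 162 normalised CPM in AdGFP and 257, 114, 66.4 and 101 in AdNAMPT, so that the highest and the lowest mouse were both in AdNAMPT. The log2 fold change was -0.66 ± 0.28, with an interval from -1.26 to -0.05 (limma, adjusted p = 0.492). Without AdNAMPT replicate 1 it was -0.90, with an adjusted p of 0.17 in limma. With all libraries but no sample weights the estimate was -0.44. In DESeq2 and in both edgeR tests it was -0.31. No other tested member had an interval that reached past -1 or 1.

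C8a, which encodes the alpha chain and faces C8b at its 3′ end on chromosome 4, put the AdNAMPT mice in the same order as C8b. It was at 379, 278, 333 and 357 normalised CPM in AdGFP and at 440.4, 288, 177 and 257 in AdNAMPT. C6, F11 and Pros1, on other chromosomes, had the same order in AdNAMPT, and in AdGFP the orders of C8a and C8b differed. The log2 fold change of C8a was -0.38 ± 0.18 with all libraries and -0.55 without AdNAMPT replicate 1 (limma, adjusted p of 0.542 and 0.26). C9, the pore-forming component, was at 487, 488, 431 and 430.3 in AdGFP and at 679, 355, 354 and 398 in AdNAMPT. Apart from replicate 1, the AdNAMPT mice lay below every AdGFP mouse for C9, with a log2 fold change of -0.30 without that library (limma, adjusted p = 0.266). C8g, the gamma chain and the most abundant of these genes at 259 RPKM, was at 362 to 418 normalised CPM in AdGFP and at 364 to 421 in AdNAMPT. Its gene is elsewhere, on chromosome 2, and its log2 fold change was -0.06 ± 0.08, which turned to 0.02 under library size alone.

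AdNAMPT replicate 1, which had the highest C6, C8a, C8b and C9 of all 8 mice, was the library with the low female-biased and high male-biased sums given above. The part of that difference in the terminal complement values was not tested.

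**Figure D4:**
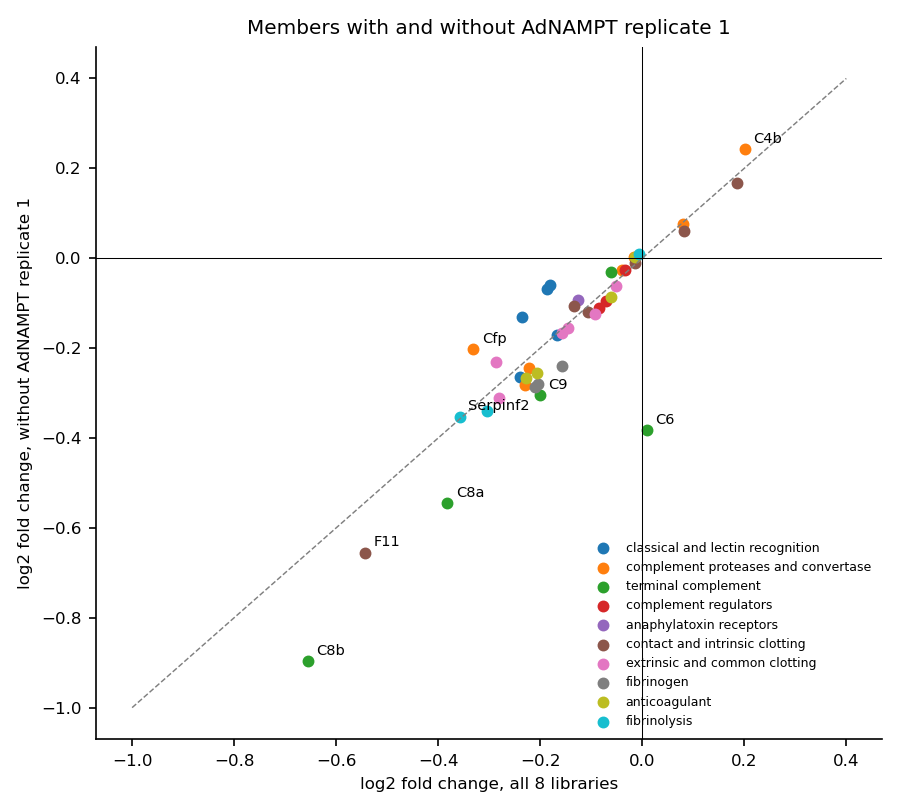
Log2 fold change of the 43 tested members with all 8 libraries (horizontal) and without AdNAMPT replicate 1 (vertical), coloured by role, with the dashed line marking equal values. C6 moves from 0.01 to -0.38 and C8b from -0.66 to -0.90, while Serpinf2 stays at -0.36 and -0.35.

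Recognition molecules of the classical and lectin pathways all had lower estimates, 5 of 5, under TMM and under library size alone, and 0 passed the test. Mbl1, a mannose-binding lectin at 237 RPKM, was at 275, 200.5, 260.1 and 229 normalised CPM in AdGFP and at 211, 217, 209 and 186 in AdNAMPT. The groups overlapped through AdGFP replicate 2, and the log2 fold change was -0.24 ± 0.10 (limma, adjusted p = 0.493). Mbl2, the other mannose-binding lectin, at 236 RPKM, was at 249 to 296 in AdGFP and at 239 to 267 in AdNAMPT.

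The 3 chains of C1q are described as a set of macrophage transcripts, chosen after their values were seen. C1qa was at 25.7, 30.7, 33.6 and 28.2 normalised CPM in AdGFP and at 20.6, 19.99, 31.2 and 33.3 in AdNAMPT. C1qb was at 37.2, 42.0, 44.2 and 30.3 in AdGFP and at 24.0, 27.8, 38.5 and 41.4 in AdNAMPT. C1qc was at 41.5, 48.3, 52.0 and 35.6 in AdGFP and at 30.3, 29.6, 44.4 and 45.1 in AdNAMPT. For all 3 chains AdNAMPT replicates 1 and 2 were the lowest of the 8 mice, and replicates 3 and 4 lay among the AdGFP mice.

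Log2 fold changes were -0.18 for C1qa, -0.19 for C1qb and -0.24 for C1qc, each with an SE of 0.16 (limma, adjusted p from 0.692 to 0.769). Without AdNAMPT replicate 1 they were -0.06, -0.07 and -0.13. Cfp, which encodes properdin, a stabiliser of the alternative convertase, was also lowest in AdNAMPT replicates 1 and 2, at 9.51 and 8.87, against 11.3 to 19.8 in AdGFP. Of 10 Kupffer cell markers, 9 had lower estimates and 0 were called. An unadjusted p under 0.05 was found for 5, all lower, with log2 fold changes of -1.32 for Cd163, -0.84 for Folr2, -0.83 for Timd4, -0.51 for Vsig4 and -0.45 for Clec4f (limma, adjusted p from 0.211 to 0.453). The summed level of the 10 markers was 384 to 487 normalised CPM in AdGFP and 309 to 423 in AdNAMPT, with the lowest sums of 309 and 326 in AdNAMPT. In bulk liver, fewer cells of a type and less RNA per cell cannot be told apart. The part of the Kupffer cell markers in the C1q values was not tested.

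Among the proteases and the components of the convertases, 5 of 7 had lower and 2 higher estimates. C3 (ENSMUSG00000024164, chr17:57203970-57228136, minus strand), on which all 3 pathways converge, was at 8949, 8015, 7445 and 7584 normalised CPM in AdGFP and at 7766, 6626, 6425 and 7158 in AdNAMPT. AdNAMPT replicate 1 lay within the AdGFP range and the other 3 below it, with a log2 fold change of -0.22 ± 0.10 (limma, adjusted p = 0.511). Masp1, a protease bound to mannose-binding lectin, was at 87.3, 73.9, 79.6 and 76.1 in AdGFP and at 75.6, 73.1, 62.6 and 62.4 in AdNAMPT. Its groups overlapped through AdNAMPT replicate 1, and the log2 fold change was -0.23 ± 0.08 (limma, adjusted p = 0.445).

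C4b, the classical pathway component C4, had the highest estimate of the tested members, at 528, 771, 589 and 652 in AdGFP and 656, 660.1, 804 and 725 in AdNAMPT. The log2 fold change was 0.20 ± 0.12 (limma, adjusted p = 0.632). Only unique and unambiguous reads were counted, so reads that fit C4b and its near-identical copy C4a alike were left out. The level of either gene can therefore be too low. Levels of Cfb, factor B, of C2 and of Masp2 are less certain, since 79.5%, 46.9% and 54.9% of their exonic bases overlap another feature. Their values were 73.3 to 87.0 for Cfb, 23.4 to 28.5 for C2 and 150.04 to 178 for Masp2 over the 8 mice.

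The complement regulators differed little, with estimates from -0.08 to -0.03 on the log2 scale, all 3 of which turned positive with the common shift under library size alone, and with overlapping groups. Cfi, factor I, which cleaves C3b, was at 629, 745, 641 and 697 normalised CPM in AdGFP and at 583, 705, 563 and 724 in AdNAMPT, with a log2 fold change of -0.03 ± 0.10. C4bp, the C4b-binding protein, was at 654, 620.3, 737 and 602 in AdGFP and at 592, 687, 539.6 and 607 in AdNAMPT, with -0.08 ± 0.10. Serping1, the C1 inhibitor, was at 376 to 565 in AdGFP and at 367 to 441 in AdNAMPT.

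Both anaphylatoxin receptors were low, and C5ar1 was near the limit of detection. C3ar1 had 23 to 52 counts in a library and was at 2.44, 2.30, 3.25 and 3.43 normalised CPM in AdGFP and at 1.85, 2.93, 2.43 and 2.95 in AdNAMPT. Its log2 fold change was -0.13, with an interval from -0.55 to 0.30. C5ar1 had 3 to 18 counts and was at 0.562 to 1.14 normalised CPM in AdGFP and at 0.242 to 0.875 in AdNAMPT, where 3 counts equal 0.151 to 0.250 CPM of the total. Of 10 monocyte and neutrophil markers only 3 passed the filter, their summed level was 7.13 to 9.16 in AdGFP and 5.72 to 10.8 in AdNAMPT, and 1, Fcnb, had no counts.

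Of the contact and intrinsic clotting genes, 4 of 6 had lower and 2 higher estimates. F11 (ENSMUSG00000031645, chr8:45241170-45262031, minus strand) encodes factor XI, which activates factor IX. It was at 37.2, 25.0, 31.6 and 25.6 normalised CPM in AdGFP and at 30.0, 23.1, 16.9 and 18.6 in AdNAMPT. Only AdNAMPT replicate 1 lay among the AdGFP mice. The log2 fold change was -0.54 ± 0.16, a ratio of 0.686 (0.535 to 0.881), with an adjusted p of 0.37 in limma. Without AdNAMPT replicate 1 it was -0.66, with an adjusted p of 0.17.

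Kng1, kininogen, the most abundant gene of this arm at 502 RPKM, was at 1490.3, 1779, 1672 and 1660.4 normalised CPM in AdGFP and at 1415, 1781, 1315 and 1838 in AdNAMPT. Its log2 fold change was -0.01 ± 0.11. F12, factor XII, was at 286 to 308 in AdGFP and at 292 to 376 in AdNAMPT, and F9, factor IX, at 249.7 to 279.8 and at 238 to 256. The endothelial members were F8, at 46.2, 53.4, 46.9 and 52.3 in AdGFP and 38.5, 46.0, 44.3 and 47.1 in AdNAMPT, and Vwf, at 24.0, 14.1, 17.3 and 20.5 in AdGFP and 23.1, 22.4, 18.6 and 24.7 in AdNAMPT. Their log2 fold changes of -0.13 ± 0.08 and 0.19 ± 0.15 had opposite signs. The 10 endothelial markers summed to 356 to 414 normalised CPM in AdGFP and 353 to 406 in AdNAMPT, with 5 lower and 5 higher estimates.

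The extrinsic and common clotting genes all had lower estimates, 6 of 6, with a median log2 fold change of -0.15 and 0 called, and F2 turned to a higher estimate under library size alone. F7 (ENSMUSG00000031443, chr8:13026034-13035809, plus strand) encodes factor VII, the partner of tissue factor. It was at 127, 101, 114 and 133 normalised CPM in AdGFP and at 98.4, 109, 92.3 and 92.3 in AdNAMPT. The overlap came from AdGFP replicate 2 and AdNAMPT replicate 2, and the log2 fold change was -0.28 ± 0.10 (limma, adjusted p = 0.425). F2, prothrombin, was at 1517, 1550.0, 1543 and 1617 in AdGFP and at 1501, 1544, 1470.0 and 1474 in AdNAMPT, with -0.05 ± 0.07. Its interval, from -0.21 to 0.10 on the log2 scale, was among the narrowest. F10, F5 and F13b, which encode factor X, factor V and the B chain of factor XIII, ranged over 348 to 448, 439.5 to 564 and 278 to 389 in the 8 mice. Tfpi, the inhibitor of the tissue factor pathway, ranged over 6.93 to 11.6. The 6 vitamin K-dependent members had 6 lower estimates and a median of -0.13.

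Of the 4 anticoagulant genes, all had lower estimates and 0 were called, and Proc and Serpinc1 turned to higher estimates under library size alone. Pros1, protein S, the cofactor of activated protein C, was at 90.4, 86.1, 77.9 and 96.7 normalised CPM in AdGFP and at 90.0, 77.8, 68.5 and 75.6 in AdNAMPT. Without AdNAMPT replicate 1 its groups did not overlap, and the log2 fold change was -0.21 ± 0.09 with all libraries (limma, adjusted p = 0.506). Serpinc1, antithrombin, was at 2399.9, 2210.1, 2349.9 and 2399 in AdGFP and at 2116, 2379.5, 2201 and 2509.5 in AdNAMPT, with -0.01 ± 0.08. Proc, protein C, ranged over 377 to 478 in the 8 mice, and Serpind1, heparin cofactor II, over 477 to 724 with its lowest value in AdNAMPT replicate 3.

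**Figure D5:**
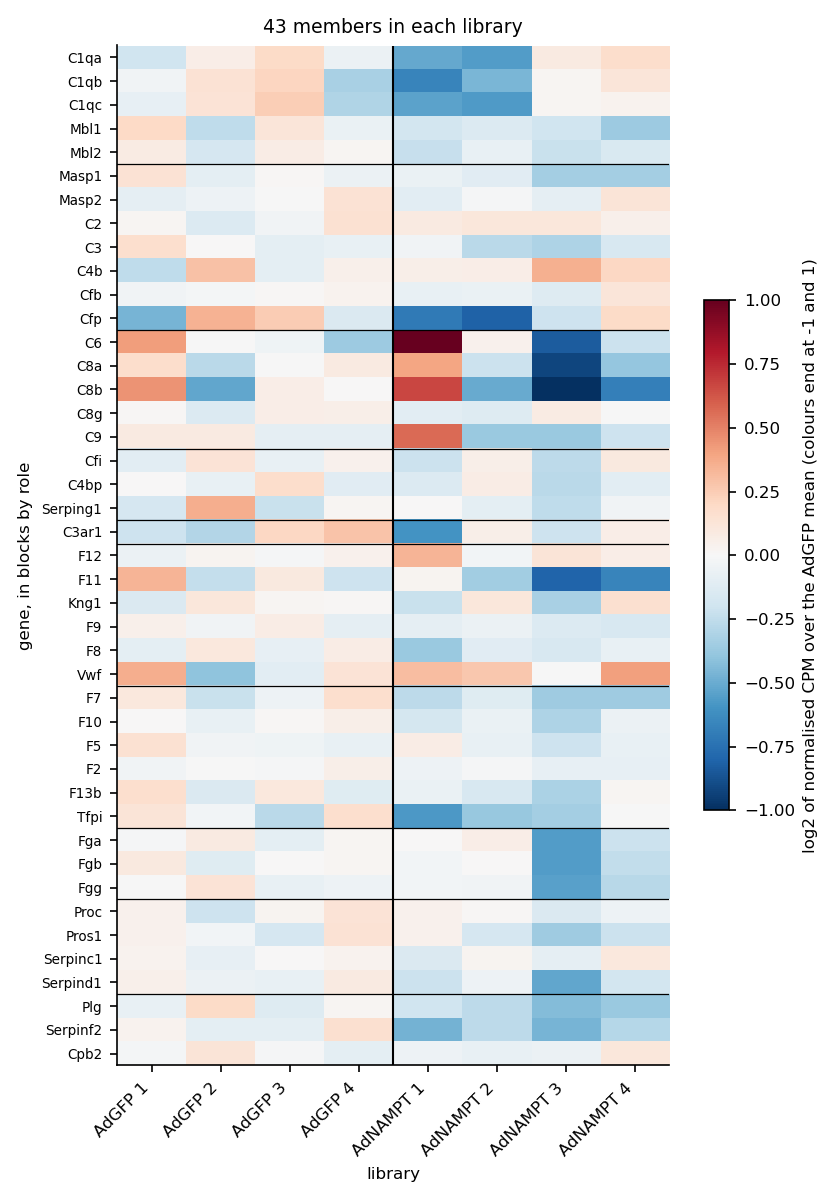
Log2 of normalised CPM relative to the AdGFP mean for the 43 tested members (rows, in blocks by role) in each of the 8 libraries (columns), blue below and red above the AdGFP mean, with colours ending at -1 and 1. The column of AdNAMPT replicate 3 holds the lowest value of 21 members, and C6, C8a, C8b and C9 are red in AdNAMPT replicate 1.

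A separate list, written with earlier results of these data known, held 58 other genes of both cascades, and 43 of them were tested. Of these 1 was called (2.33%, against 0.277% of all genes), 12 had an unadjusted p under 0.05 (27.9%, against 9.69%), and 23 had lower and 20 higher estimates. Groups did not overlap for 5 that were lower (11.6%, against 2.7%) and 2 that were higher (4.65%, against 2.09%). Fcna (ENSMUSG00000026938, chr2:25624666-25628030, minus strand), ficolin A, a recognition molecule of the lectin pathway made by macrophages, fell by 0.81 on the log2 scale (SE 0.08; limma, adjusted p = 0.00082). It was at 32.0, 26.7, 32.5 and 31.4 normalised CPM in AdGFP and at 19.0, 16.8, 17.7 and 18.4 in AdNAMPT, and it was called under all 17 alternatives. The Kupffer cell markers given above had lower estimates beside it, and their part in this result was not tested. Of its exonic bases 6.6% overlap an antisense feature, so that reads there cannot be assigned if strand was not used.

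Lower without overlap, but not called, were also Vsig4, a complement receptor of Kupffer cells, Colec10, a soluble lectin, C1rl, a relative of C1r, and Lman1, a carrier that exports factors V and VIII from the endoplasmic reticulum. Vsig4, which is also 1 of the Kupffer cell markers above, was at 28.2, 33.9, 28.5 and 25.1 in AdGFP and at 19.99, 16.8, 20.8 and 23.6 in AdNAMPT, with a log2 fold change of -0.51 ± 0.12 (limma, adjusted p = 0.211). The adjusted p was 0.0393 in the DESeq2 Wald test. Colec10 was at 48.8, 56.0, 56.9 and 56.4 in AdGFP and at 38.2, 44.96, 44.9 and 45.8 in AdNAMPT, with -0.29 ± 0.08. C1rl, at 112, 118, 102 and 104 against 94.1, 95.8, 93.5 and 94.6, and Lman1, at 347, 320.2, 357 and 337 against 309.5, 302, 290.4 and 304, both had a log2 fold change of -0.19 ± 0.07.

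Of the tested genes, C4a and Plat were higher without overlap and not called. C4a was at 41.7, 56.2, 45.2 and 49.2 normalised CPM in AdGFP and at 267, 67.3, 64.3 and 58.9 in AdNAMPT, with a log2 fold change of 0.70 ± 0.29, and 0.43 without AdNAMPT replicate 1 (limma, adjusted p of 0.491 and 0.161). Plat, tissue plasminogen activator, was at 0.717, 0.307, 0.874 and 0.611 in AdGFP and at 1.05, 2.05, 0.972 and 1.24 in AdNAMPT, on 4 to 30 counts in a library, with 1.02 ± 0.35 (limma, adjusted p = 0.425). Cr2, a complement receptor of B cells, was under the filter and not tested, with 3 to 12 counts in a library, and its groups did not overlap either, at 0.358, 0.230, 0.374 and 0.229 normalised CPM in AdGFP and 0.806, 0.819, 0.486 and 0.589 in AdNAMPT.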

How the data were processed

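Liver RNA of 8 db/db mice was sequenced as single 50-base reads per the study's methods. The deposited counts are whole reads per Ensembl gene, from reads that the authors aligned with STAR 2.4.0b (per the submitters' processing notes) to GRCm38 and counted when unique and unambiguous with featureCounts 1.4.5. The deposited CPM values are each count over its library total, and the deposited RPKM values are these CPM per kilobase of exon, both without a further factor. Strand use is not given in the sources used here. The labels name a ribosomal depletion kit and the study's methods poly-A selection. Symbols were taken from GENCODE M21 and matched 40254 of 41388 features.

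Following the study's methods, 355 ribosomal RNA features and genes not over 1 CPM in at least 3 libraries were left out. Counts were scaled by TMM and fitted with limma 3.58.1 (voomWithQualityWeights, lmFit, eBayes; edgeR 4.0.16, DESeq2 1.42.0, R 4.3.3), with group as the only term and Benjamini-Hochberg adjustment over 12270 genes. Called means an adjusted p of at most 0.05. Normalised CPM are CPM recomputed on the filtered, TMM-scaled library. The routines were tested on simulated counts. Libraries held 12006713 to 19879814 counts, so 3 counts equal 0.151 to 0.250 CPM, which covers counting error only, as no molecular identifiers are described. The labels say nothing of separate cages or runs, so p-values measure the spread between these mice. The chi-square per degree of freedom between mice of a group was 11.3 to 81.8, and each library was kept as 1 mouse.

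The members and lists were chosen with earlier results of these data known. Fully described were called members, those without overlap, the smallest unadjusted p and highest RPKM of each role, the widest intervals, and other pathway genes called or without overlap. C1qa, C1qb, C1qc, C6, C8a, C9, C4b, Fga, F8 and Vwf were added after values were seen. The alternatives were 2 edgeR tests, DESeq2, no sample weights, DESeq2 size factors, library size alone, no filter, a mean count of at least 10, a replicate block, and each library left out.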

Additional observations from a re-analysis of the deposited data

Results flagged for a closer look

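In 102 groups of 4 mice (44 members and 7 other genes of the cascades, in both groups), 7 values stood apart from the other mice of their group by a gap that passed Dixon's critical value at 95%, where chance gives about 1 in 20 groups, or 5.1. The groups come from the same mice and are not independent, and the 7 other genes were picked as called or without overlap. AdNAMPT replicate 1 held 4 of the 7 values that stood apart. Its C6 was at 145 normalised CPM against 13.1 to 24.1 in the other AdNAMPT mice, its C9 at 679 against 354 to 398, its C4a at 267 against 58.9 to 67.3, and its Colec10 at 38.2 against 44.9 to 45.8. AdGFP replicate 1 held F5 at 564 against 483 to 495 and Colec10 at 48.8 against 56.0 to 56.9. AdNAMPT replicate 4 held Cpb2 at 419.6 against 369.7 to 375.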

How the results depend on the processing

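Members called numbered 0 in the limma fit and in all alternatives but the DESeq2 Wald test, which called 1 (Serpinf2). Members with an unadjusted p under 0.05 in either direction numbered 10 of 43, against 1189 of all 12270 genes. They numbered 5 with edgeR's quasi-likelihood test (982 genes) and 4 with its exact test (822 genes). Without sample weights there were 6 (961 genes), and with library size alone 4 (1609 genes). With library size alone the members' share was thus under that of all genes. Leaving out 1 library gave 4 (AdGFP replicate 1, against 979 of 12485 genes) to 15 (AdNAMPT replicate 2, against 1291 of 12466). It gave 6 without AdNAMPT replicate 3 (against 1508 of 12430). Members higher in AdNAMPT numbered 5, and 16 with library size alone and 5 to 10 with 1 library left out (9 without AdGFP replicate 2, 10 without AdNAMPT replicate 3). The members' median was -0.16, and -0.069 with library size alone and -0.18 to -0.090 with 1 library left out. Members not overlapping numbered 2, both lower (4.65%, against 2.7% of all genes), and 1 with library size alone. With 1 library left out they numbered 2 to 8, since fewer mice must then be apart. The count was 8 without AdGFP replicate 2 or AdNAMPT replicate 1, and 7 without AdNAMPT replicate 2. It was 5 without AdNAMPT replicate 4 and 4 without AdGFP replicate 4. The share of all genes without overlap was not taken for these alternatives, so their counts have no background beside them. Other pathway genes called numbered 1, and 2 with DESeq2 and with the exact test. All genes called numbered 34, and 75 with DESeq2 and 65 with the exact test. With a replicate block, 0 members and 41 of all genes were called, and 11 members had an unadjusted p under 0.05 (against 1181 of 12270 genes). Mice of the same number are different animals, and their deviations correlated at -0.04 to 0.22. Whether the numbers mark a shared litter or batch was not tested, and the main fit did not pair them.

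Library size alone raised the members' estimates by 0.074 to 0.092, near the median shift of 0.084 over all genes, so that estimates just below 0 changed sign. Of the 11 members that did, those described in full were C8g (0.021), C4bp (0.00062), Cfi (0.053), Kng1 (0.070), F2 (0.033) and Serpinc1 (0.068), and the others were Masp2, Cfb, Serping1, Proc and Cpb2. With 1 library left out, some of the genes described in full changed sign. Their estimates ranged over -0.12 to 0.0088 for C8g, -0.20 to 0.011 for C4bp, -0.12 to 0.037 for Cfi and -0.13 to 0.082 for Kng1. The ranges were -0.040 to 0.0036 for Serpinc1, -0.40 to 0.054 for C1qa, -0.38 to 0.35 for C6 and -0.35 to 0.013 for Fga. Other members changed sign too, among them Masp2 (0.0028) and Cpb2 (0.0094) without AdNAMPT replicate 1. The cause of these changes with a library left out was not tested. Depth limits C5ar1, with 3 to 18 counts in a library, and Plat, with 4 to 30.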
